A study of Mus musculus with 10 samples.

Results

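The genes described here build peroxisomes and carry out the oxidation that takes place inside them. They were chosen by name, as 35 mouse genes, and all 35 were found among the 41388 genes of the count tables and passed the filter on low counts (more than 1 CPM, the count scaled to a fixed library total, in at least 1 library). By role, 11 encode peroxins of assembly and matrix import (Pex2, Pex3, Pex5, Pex6, Pex7, Pex10, Pex13, Pex14, Pex16, Pex19 and Pex26) and 2 encode peroxins of division (Pex11a and Pex11g). A further 4 encode ABC transporters of subfamily D or an acyl-CoA activator (Abcd2, Abcd3, Abcd4 and Slc27a2), 7 encode beta-oxidation enzymes (Acox2, Acox3, Ehhadh, Hsd17b4, Acaa1a, Acaa1b and Scp2) and 4 encode auxiliary enzymes for unsaturated or branched chains (Decr2, Eci2, Pecr and Amacr). The last 7 are the alpha-oxidation genes Phyh and Hacl1, the chain export and malonyl-CoA genes Crot and Mlycd, and Cat, Hao1 and Dhrs4, which act on hydrogen peroxide, glycolate and carbonyl compounds.

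Liver RNA from C57B/6J mice of 12 wk was sequenced in 10 libraries, to ask what fasting and the loss of hepatocyte NAMPT, an enzyme of NAD salvage, do to the liver transcriptome. The 3 WT Fasting and 5 NAMPT LKO Fasting mice had been without food for 24 h. The 2 WT Refed mice had been without food for 22 h and were then fed for 2 h, so both WT groups share a long fast, and the study's text calls this group fed and gives 12 h of fasting. All mice carry Nampt alleles flanked by LoxP sites, which remain intact in WT mice, and NAMPT LKO littermates also carry Albumin-cre, which deletes Nampt in hepatocytes and leaves it in the other cells of the liver. No NAMPT LKO Refed group was analysed here, so the effect of genotype can be read in fasted mice only.

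Peroxisomes have no DNA or ribosomes of their own. Their matrix enzymes are made in the cytosol, recognised by the receptors PEX5 and PEX7, docked at the membrane by PEX13 and PEX14 and released inside, after which a ubiquitin ligase that contains PEX2 and PEX10 and a pair of ATPases held by PEX26 recycle the receptor. In hepatocytes the organelle shortens very long and branched acyl chains and bile acid precursors, producing hydrogen peroxide that catalase removes, and many of its oxidation genes are known targets of the fatty acid receptor PPARα, which is active in fasting.

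Total counts ranged from 30603080 to 43434139 per library, and the share of reads on the mitochondrial genome was 10.4% to 12.9% in 8 libraries, 7.42% in WT Fasting mouse 3 and 21.1% in NAMPT LKO mouse 5. Nampt itself was 67.8 and 78.0 TMM-normalized CPM in WT Refed, 63.0 to 141 in WT Fasting and 11.8 to 15.3 TMM-normalized CPM in NAMPT LKO Fasting livers (log2 fold change -2.81, with 0.00102 as its adjusted p by edgeR). All 7 hepatocyte markers were detected, with summed levels of 69962 to 117156 CPM per library, and the pancreas markers Prss2 and Cela3b were at 0 in every library. Summed stellate and fibroblast markers (4 of 4 detected) were 198 to 264 CPM in NAMPT LKO Fasting, 164 to 217 CPM in WT Fasting and 166 to 167 CPM in WT Refed livers. Kupffer cell and macrophage markers (6 of 6 detected) summed to 139 to 160 CPM in WT Refed, 179 to 348 CPM in WT Fasting and 125 to 276 CPM in NAMPT LKO Fasting livers. Endothelial markers (4 of 4 detected) summed to 112 to 117 CPM in WT Refed, 123 to 138 CPM in WT Fasting and 111 to 147 CPM in NAMPT LKO Fasting livers, so both of these lists were higher without overlap in WT Fasting than in WT Refed livers. Bile duct markers (4 of 4 detected) summed to 13.8 to 16.7 CPM in NAMPT LKO Fasting livers, 6.51 to 11.2 CPM in WT Fasting livers and 10.6 to 11.2 CPM in WT Refed livers, and the part of these 4 marker lists in the results was not tested. In whole liver, fewer cells of a type and less RNA per cell cannot be told apart.

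Levels of the peroxisomal genes were compared with each other in RPKM, which divides the library-scaled count by gene length. Mean RPKM over the 10 libraries spanned from 1.68 for Pex10 to 1364 for Cat, with 10 genes above 100, 17 from 10 to 100 and 8 under 10. Catalase (Cat, 1364 RPKM), phytanoyl-CoA hydroxylase of alpha-oxidation (Phyh, 957 RPKM) and the sterol carrier and thiolase gene Scp2 (727 RPKM) stood highest. The next levels were those of the thiolase gene Acaa1b (649.8 RPKM), the bifunctional enzyme gene Ehhadh (459.7 RPKM) and the very long chain acyl-CoA synthetase gene Slc27a2 (436 RPKM). The highest of the 13 peroxins was Pex11a, at 79.1 RPKM, followed by Pex16 at 49.9 RPKM, while Pex10, the transporter gene Abcd2 (1.75 RPKM) and the branched chain oxidase gene Acox3 (2.17 RPKM) were lowest. The 35 genes together took 1.55% to 1.59% of all counts in WT Refed, 1.58% to 1.76% in WT Fasting and 1.63% to 1.82% in NAMPT LKO Fasting livers.

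**Figure D1:**
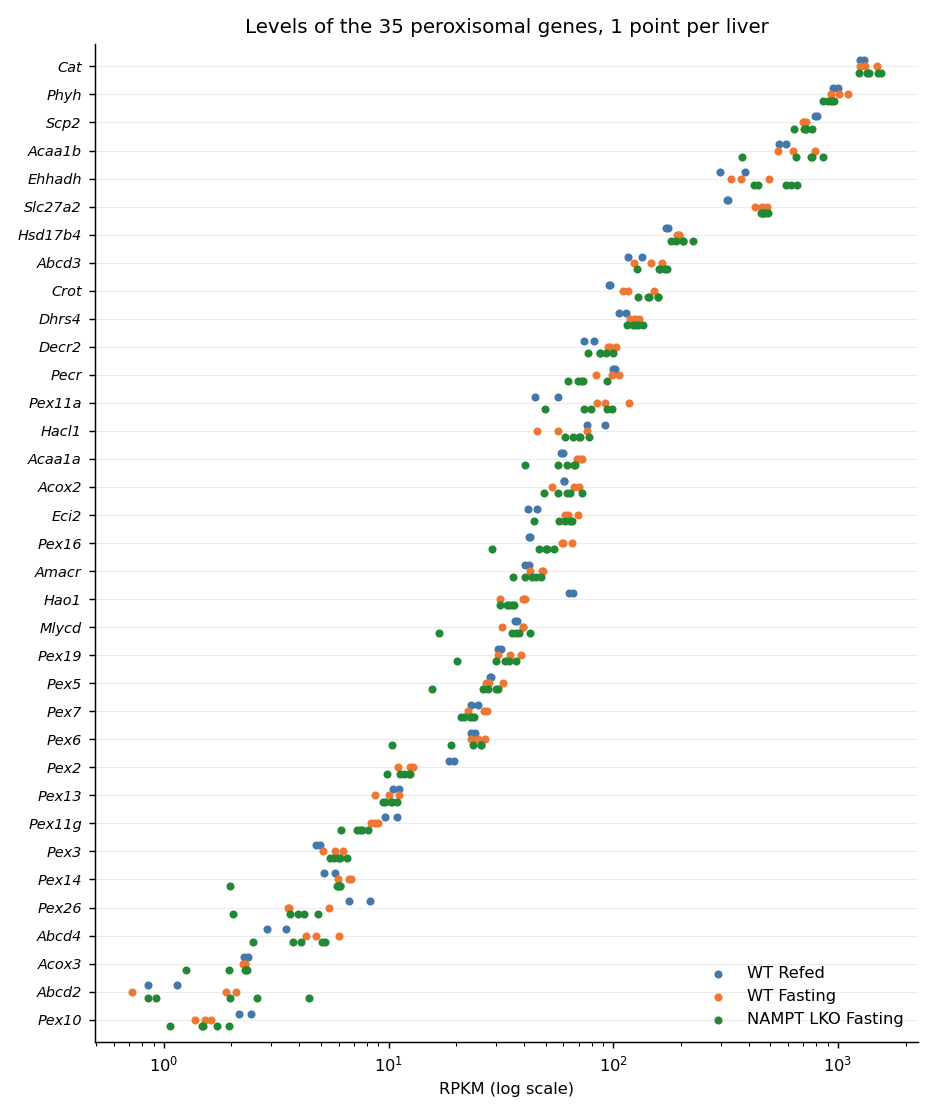
RPKM (log scale, horizontal axis) of each of the 35 genes in each liver, with genes ordered by their mean over 10 livers and points coloured by group. Cat stands highest at a mean of 1364 RPKM and Pex10 lowest at 1.68 RPKM.

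The 3 genes with the highest levels showed little difference between groups. Cat (ENSMUSG00000027187, chr2:103453849-103485160 of GRCm38, minus strand) was 3311 and 3191 TMM-normalized CPM in the WT Refed livers, 3441, 4080.3 and 3235 in the WT Fasting livers, and 3482, 3629, 3187, 3969 and 4837 in the NAMPT LKO Fasting livers. Phyh (ENSMUSG00000026664, chr2:4919019-4938730, plus strand) was 1744 and 1836 TMM-normalized CPM in WT Refed, 1754, 2198 and 1881 in WT Fasting, and 1686, 1828, 1586, 1804 and 2103 in NAMPT LKO Fasting livers. Scp2 (ENSMUSG00000028603, chr4:108043839-108144998, minus strand) was 2659 and 2727 TMM-normalized CPM in WT Refed, 2484, 2588 and 2389.9 in WT Fasting, and 2486, 2687, 2464, 2479.9 and 2643 in NAMPT LKO Fasting livers. TMM-normalized CPM corrects library totals for a few genes that take many reads, and is the scale used for all values by library. The ranges of the groups overlapped for Cat and Phyh in each comparison, whereas all 3 WT Fasting livers lay below both WT Refed livers for Scp2. None of these differences passed the test, with the largest log2 fold change at 0.23 (Cat, NAMPT LKO Fasting vs. WT Refed, SE 0.17).

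The first comparison asked how fasted liver differs from liver after 2 h of food when Nampt is intact. In WT Fasting vs. WT Refed livers, 5 of the 35 genes differed, against 7.04% of the 13444 genes tested (called means an adjusted p of at most 0.05 by the quasi-likelihood test of edgeR, and each error on a log2 fold change is the standard error, SE). Called higher in WT Fasting livers were 3 genes, Pex11a, Eci2 and Slc27a2, against 2.68% of all genes, and called lower were 2, Hao1 and Pex2, against 4.36%. Each of the 5 came from a different role. The groups did not overlap for 19 of the 35 genes, 14 of them higher and 5 lower in WT Fasting livers, against 49.7% of all genes in either direction. The share over all genes was not taken by direction. The median log2 fold change of the 35 genes was 0.21, with 26 of 35 above 0. Over all genes tested the median was 0.04, with 53.6% above 0.

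Pex11a (ENSMUSG00000030545, chr7:79735957-79743131 of GRCm38, minus strand), which encodes the membrane-elongating peroxin that precedes fission and is a known PPARα target, had the largest called difference. It was 129.8 and 103 TMM-normalized CPM in WT Refed livers, 277, 212 and 213 in WT Fasting livers, and 186, 225, 173, 236 and 139.6 in NAMPT LKO Fasting livers. Both fasted groups lay above both WT Refed livers, and NAMPT LKO mouse 5 was the lowest of the fasted livers. The log2 fold change in WT Fasting vs. WT Refed livers was 1.01 (SE 0.23 with adjusted p = 0.0239 by edgeR). Against WT Refed, NAMPT LKO Fasting livers had a log2 fold change of 0.72 (SE 0.21 with adjusted p = 0.0504 by edgeR), just outside the threshold. The other division gene of the set, Pex11g, had a log2 fold change of -0.18 (SE 0.11) in the WT comparison and was not called.

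Eci2 (ENSMUSG00000021417, chr13:34977748-35027094, minus strand) encodes an isomerase that moves the double bond of unsaturated acyl chains so that beta-oxidation can go on. It was 116 and 106 TMM-normalized CPM in WT Refed, 158, 191 and 161 in WT Fasting, and 158, 169, 147, 173 and 139 in NAMPT LKO Fasting livers. All 8 fasted livers lay above both WT Refed livers. On the log2 scale the fold change was 0.62 in WT Fasting (SE 0.14 with adjusted p = 0.0236) and 0.51 in NAMPT LKO Fasting livers (SE 0.13 with adjusted p = 0.0310), both against WT Refed by edgeR. Of the other auxiliary enzymes, the dienoyl-CoA reductase gene Decr2 was 165 to 181 TMM-normalized CPM in WT Refed and 218 to 235 in WT Fasting livers without overlap, but was not called (log2 fold change 0.39 with adjusted p = 0.0706 by edgeR).

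Slc27a2 (ENSMUSG00000027359, chr2:126552407-126588243, plus strand) encodes the very long chain acyl-CoA synthetase that activates fatty acids at the peroxisome and also works in fatty acid uptake. It was 1174 and 1172 TMM-normalized CPM in WT Refed, 1714, 1914 and 1579 in WT Fasting, and 1770.0, 1737, 1714, 1725 and 2188 in NAMPT LKO Fasting livers. The refed pair was nearly identical and every fasted liver stood above it, with NAMPT LKO mouse 5 highest. Its log2 fold change was 0.57 in WT Fasting (SE 0.15 with adjusted p = 0.0441) and 0.64 in NAMPT LKO Fasting livers (SE 0.14 with adjusted p = 0.0153), both against WT Refed by edgeR. The ABC transporter genes of the same role, which bring acyl-CoA into the organelle, were not called. Abcd3 had a log2 fold change of 0.27 (SE 0.20), Abcd4, which is now placed at the lysosome, 0.71 (SE 0.24) and Abcd2 0.72 (SE 0.72) in WT Fasting vs. WT Refed livers.

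Hao1 and Pex2 went the other way. Hao1 (ENSMUSG00000027261, chr2:134497361-134554368, minus strand) encodes the liver glycolate oxidase, which makes glyoxylate and hydrogen peroxide in the peroxisome. It was 141 and 148 TMM-normalized CPM in WT Refed, 70.9, 97.2 and 89.5 in WT Fasting, and 76.0, 81.7, 76.9, 72.1 and 98.5 in NAMPT LKO Fasting livers, so that the fasted livers lay below both refed livers. Its log2 fold change was -0.75 in WT Fasting (SE 0.16 with adjusted p = 0.0191) and -0.83 in NAMPT LKO Fasting livers (SE 0.14 with adjusted p = 0.00487), both against WT Refed by edgeR. Pex2 (ENSMUSG00000040374, chr3:5560188-5576239, minus strand), a subunit of the ubiquitin ligase that frees the import receptor, was 43.0 and 41.0 TMM-normalized CPM in WT Refed, 29.0, 29.8 and 24.5 in WT Fasting, and 27.7, 25.7, 26.0, 28.7 and 26.7 in NAMPT LKO Fasting livers. The refed pair again stood apart from all 8 fasted livers. The log2 fold change of Pex2 was -0.60 in WT Fasting (SE 0.11 with adjusted p = 0.0119) and -0.64 in NAMPT LKO Fasting livers (SE 0.10 with adjusted p = 0.00370), both against WT Refed by edgeR. Its ligase partner Pex10, at 6.90 to 7.79 TMM-normalized CPM in WT Refed and 4.49 to 5.64 in WT Fasting livers, did not overlap between these groups either and was not called (log2 fold change -0.54 with adjusted p = 0.139 by edgeR).

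**Figure D2:**
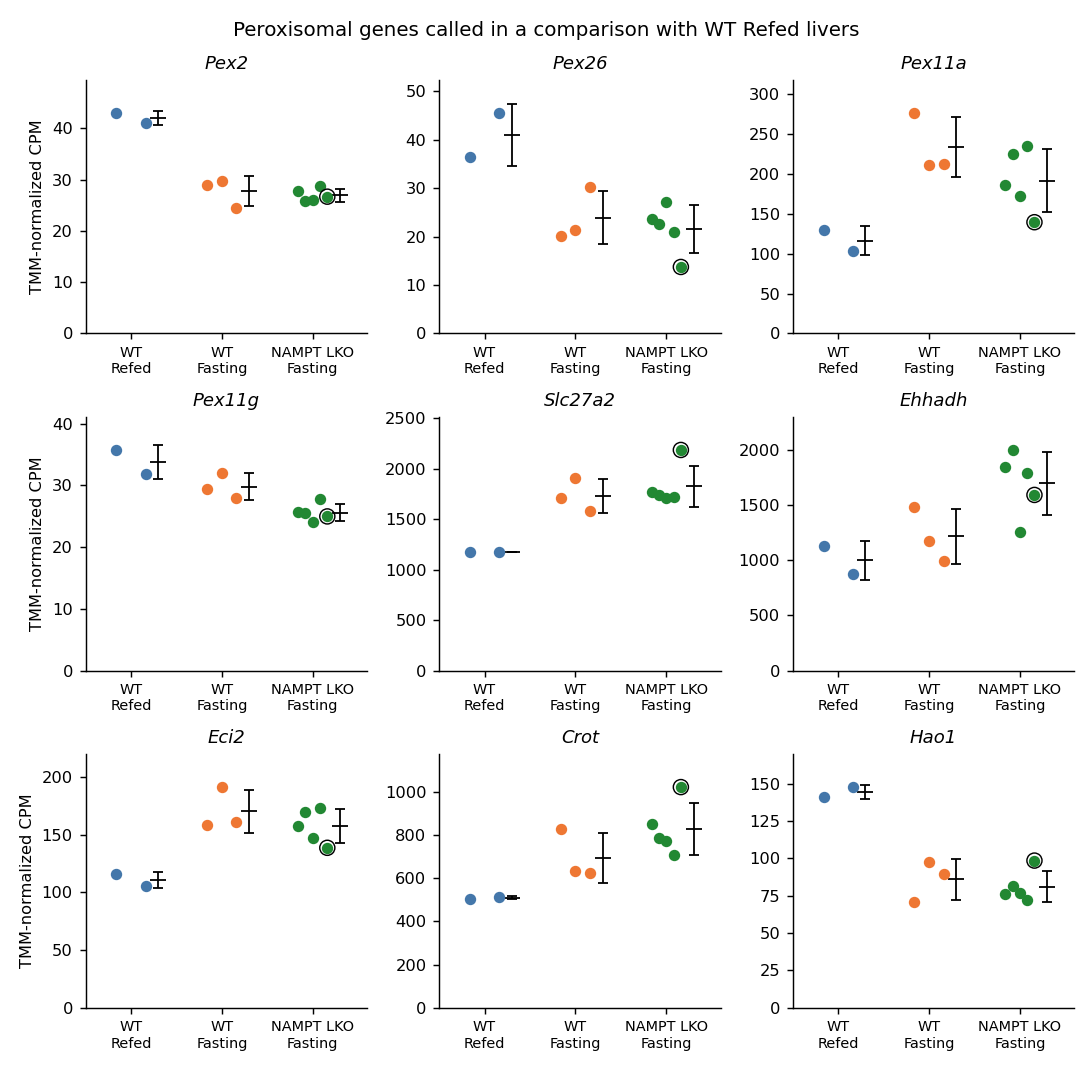
TMM-normalized CPM (vertical axes start at 0) of the 9 genes called in either comparison with WT Refed livers, with 1 point per liver and the mean with SD at the right of each group. NAMPT LKO mouse 5 is ringed. Pex2 and Hao1 are lower and Slc27a2 and Eci2 higher in all 8 fasted livers than in both WT Refed livers.

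These calls rest on the WT Refed pair. With either WT Refed library left out, 0 of the 35 genes were called in WT Fasting vs. WT Refed livers, against 1.45% of all genes without mouse 1 and 0.798% without mouse 2, where the lone refed liver was assumed to vary like the other groups. Without NAMPT LKO mouse 5, which is in neither group compared but in the same fit, 9 of the 35 genes were called, against 16.7% of all genes. Without WT Fasting mouse 1, 2 of the 35 (Pex2 and Eci2) were called, against 4.01% of all genes, and without WT Fasting mouse 2, 3 were, against 3.47%. The share called over all genes thus moved in the same direction as the count of the 35 genes in each of these fits. The call of Slc27a2 was lost in 9 of the 10 fits that each left out 1 library, with log2 fold changes of 0.49 to 0.62.

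The remaining 30 genes were not called in WT Fasting vs. WT Refed livers, with log2 fold changes from -0.78 (Pex26) to 0.72 (Abcd2). Among the 11 assembly and import genes, 7 had a log2 fold change above 0 and the median was 0.14. Pex16 (ENSMUSG00000027222, chr2:92374676-92381217, plus strand), which guides membrane proteins into new peroxisomes, was 73.5 and 72.6 TMM-normalized CPM in WT Refed and 105, 122 and 103 in WT Fasting livers (log2 fold change 0.59 with adjusted p = 0.0738 by edgeR). The receptors showed smaller differences, with log2 fold changes of 0.10 for Pex5 and 0.14 for Pex7. Of the 7 beta-oxidation enzymes, 6 had a log2 fold change above 0, yet none was called and the largest, of the thiolase gene Acaa1a, was 0.31 (SE 0.15). The alpha-oxidation gene Hacl1, a lyase that removes one carbon from branched chains, had a log2 fold change of -0.44 (SE 0.20), with groups that overlapped.

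The other genes are given by their ranges over all 10 livers. In receptor docking and release, Pex13 ranged from 39.8 to 53.6 TMM-normalized CPM, Pex14 from 14.7 to 45.1 and the ATPase gene Pex6 from 46.9 to 102, with NAMPT LKO mouse 5 lowest for both of the last. Pex14 and Pex6 had log2 fold changes of 0.31 (SE 0.32) and 0.14 (SE 0.25) in WT Fasting vs. WT Refed livers, and neither was called. Neither was larger than its error, yet for both genes every WT Fasting liver lay above both WT Refed livers. The fit that gave these errors also held NAMPT LKO mouse 5, which is in neither group. Without mouse 5 alone neither gene was called, beside 16.7% of all genes. Without mouse 5 and WT Fasting mouse 3, an alternative chosen after the data were seen, Pex14 was called and Pex6 was not, beside 17.3% of all genes. Why the errors of these genes were large was not tested. Membrane assembly was represented by Pex3 and Pex19, the receptor pair for peroxisomal membrane proteins. Pex3 was 21.9 and 22.7 TMM-normalized CPM in WT Refed livers and 23.8 to 37.0 in the 8 fasted livers, without overlap, and was not called (log2 fold changes of 0.29 and 0.40 in the fasted WT and knockout livers). Pex19 was 91.8 to 147 TMM-normalized CPM, with ranges that overlapped in every comparison.

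Among the oxidation genes, Hsd17b4, the bifunctional enzyme of bile acid and very long chain oxidation, was 566 and 578 TMM-normalized CPM in WT Refed livers, 658 to 690.1 in WT Fasting and 622 to 915 in NAMPT LKO Fasting livers. The fasted groups did not overlap with the refed pair, and the log2 fold changes against it were 0.23 (SE 0.16) and 0.32 (SE 0.15), neither called. Acox2, the oxidase for bile acid precursors, spanned 197 to 274 TMM-normalized CPM and Acox3 13.7 to 21.5, and Acaa1b spanned 872 to 1677, all with overlap between groups. The racemase gene Amacr, which turns branched chains into the form that the oxidases accept, was 102 to 105 TMM-normalized CPM in WT Refed and 107 to 129.9 in WT Fasting livers, a separation with a log2 fold change of 0.22 that was not called. Dhrs4, a carbonyl and retinal reductase, was 143 and 154 TMM-normalized CPM in WT Refed and 162 to 225 in the fasted livers, and Mlycd, the malonyl-CoA decarboxylase, was 59.3 to 125 with overlap. Neither Dhrs4 (log2 fold changes of 0.24 and 0.29 against WT Refed) nor Mlycd (0.07 and -0.05) was called.

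The second comparison asked what the loss of hepatocyte Nampt changes in the fasted liver. With both groups fasted, 0 of the 35 genes were called, against 0.00744% of the 13444 genes tested, which is Nampt alone, by the quasi-likelihood test of edgeR. By limma's voomWithQualityWeights, DESeq2 and edgeR's exact test the count was also 0, against 0.00744%, 0.179% and 0.179% of all genes. At an unadjusted p under 0.05, 4 of the 35 genes passed, against 6.03% of all genes, and none had an adjusted p under 0.798. For 34 of the 35 genes the fitted log2 fold change lay within 0.5 of 0, with a median SE of 0.14. The exception was Abcd2 (log2 fold change 0.54, SE 0.57), whose 5 NAMPT LKO livers spread from 4.75 to 29.2 TMM-normalized CPM. The median over the 35 genes was -0.10, with 14 of 35 above 0. Over all genes tested the median was 0.00025, with 50.1% above 0. Without WT Fasting mouse 2 the median over the 35 genes was -0.01.

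The groups did not overlap for 3 of the 35 genes, against 3.99% of all genes in either direction. Each of these 3 was lower in NAMPT LKO livers, and the share over all genes was not taken by direction. Pex16 was 105, 122 and 103 TMM-normalized CPM in WT Fasting livers and 88.6, 90.7, 81.0, 97.4 and 61.0 in NAMPT LKO Fasting livers. The 5 NAMPT LKO livers sat between the WT Fasting and WT Refed levels, except mouse 5, which was below both. The log2 fold change was -0.39 (SE 0.14 with adjusted p = 0.798 by edgeR). After removal of the dependence on GC content in each library it was -0.28. Pex11g (ENSMUSG00000069633, chr8:3457105-3467680, minus strand), a relative of Pex11a, was 29.5, 32.1 and 27.9 TMM-normalized CPM in WT Fasting and 25.6, 25.6, 24.1, 27.8 and 25.0 in NAMPT LKO Fasting livers, with mouse 4 of the knockout just below the lowest WT Fasting liver. Its log2 fold change was -0.22 (SE 0.09 with adjusted p = 0.827 by edgeR). Acaa1a (ENSMUSG00000036138, chr9:119339676-119350299, plus strand) was 251 and 257 TMM-normalized CPM in WT Refed, 302, 337 and 308 in WT Fasting and 292, 299, 245, 277 and 213 in NAMPT LKO Fasting livers (log2 fold change -0.25 with SE 0.12 and adjusted p = 0.837 by edgeR).

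The only difference above 0 with an unadjusted p under 0.05 was that of Ehhadh (ENSMUSG00000022853, chr16:21761287-21787844, minus strand), the enzyme with enoyl-CoA hydratase and dehydrogenase activity that carries the middle steps of peroxisomal beta-oxidation. Ehhadh was 1124 and 873 TMM-normalized CPM in WT Refed, 1483, 1169 and 989.9 in WT Fasting, and 1843, 1996, 1250.0, 1791 and 1589 in NAMPT LKO Fasting livers. Of the 5 NAMPT LKO livers, 4 lay above all WT Fasting livers and mouse 3 lay among them. Between the fasted genotypes the log2 fold change was 0.48 (SE 0.18 with adjusted p = 0.801 by edgeR). Pecr (ENSMUSG00000026189, chr1:72259167-72284314, minus strand), which reduces enoyl-CoA, was 149 and 147 TMM-normalized CPM in WT Refed, 126, 169 and 147 in WT Fasting, and 108, 112, 103, 144 and 113 in NAMPT LKO Fasting livers. Of the knockout livers 4 lay below both other groups, and mouse 4 lay within the WT Fasting range. Its log2 fold change against WT Fasting was -0.35 (SE 0.13 with adjusted p = 0.801 by edgeR).

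**Figure D3:**
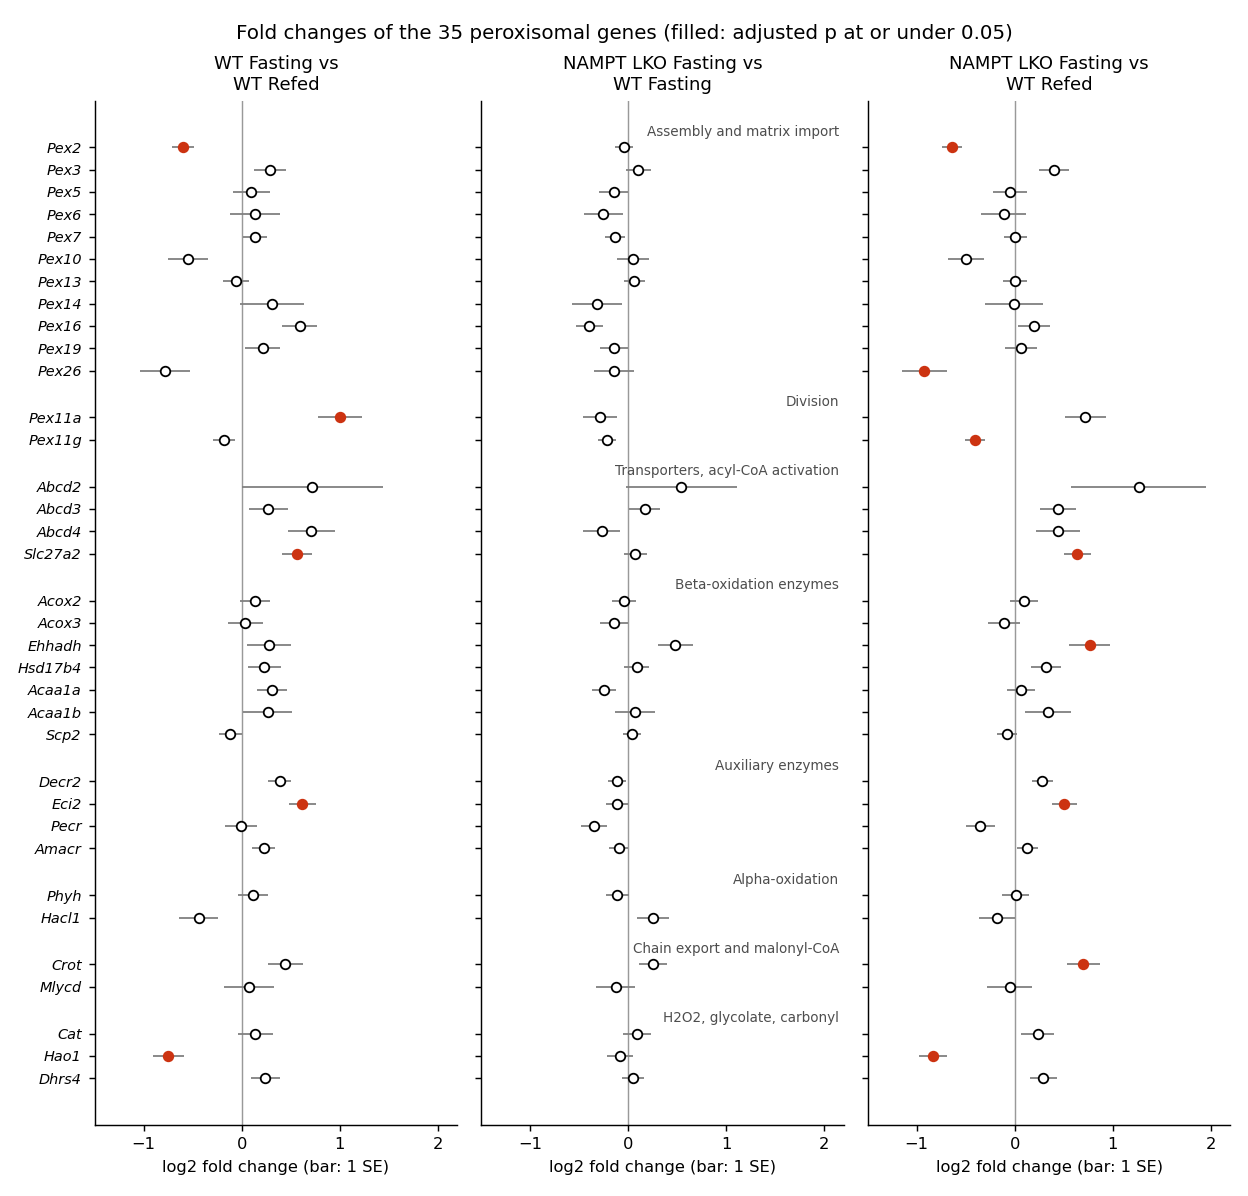
Log2 fold change (horizontal axes, bars are 1 SE) of the 35 genes in the 3 comparisons, grouped by role, with genes at an adjusted p at or under 0.05 filled. The filled points number 5 in WT Fasting vs. WT Refed, 0 in NAMPT LKO Fasting vs. WT Fasting and 8 in NAMPT LKO Fasting vs. WT Refed.

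The third comparison set the fasted knockout against refed WT livers, so genotype and feeding differ together and cannot be told apart. It shares the WT Refed libraries with the WT comparison. In NAMPT LKO Fasting vs. WT Refed livers, 8 of the 35 genes were called, against 11.2% of all genes tested. Called higher were Slc27a2, Eci2, Crot and Ehhadh, 4 genes against 4.65% of all genes, and called lower were Pex2, Hao1, Pex26 and Pex11g, 4 genes against 6.58%. The groups did not overlap for 16 of the 35 genes, 10 higher and 6 lower in NAMPT LKO livers, against 33.5% of all genes in either direction. The median log2 fold change of the 35 genes was 0.07, with 22 of 35 above 0. Over all genes tested the median was 0.03, with 53.2% above 0.

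Crot (ENSMUSG00000003623, chr5:8966033-8997324, minus strand) encodes the carnitine octanoyltransferase that lets shortened chains leave the peroxisome for the mitochondrion. It was 506 and 515 TMM-normalized CPM in WT Refed, 829, 633 and 625 in WT Fasting, and 852, 788, 775, 710.1 and 1023 in NAMPT LKO Fasting livers. Both fasted groups lay above the refed pair. The log2 fold change in NAMPT LKO Fasting vs. WT Refed livers was 0.70 (SE 0.17 with adjusted p = 0.0243 by edgeR), and in WT Fasting vs. WT Refed livers it was 0.45 (SE 0.18 with adjusted p = 0.170). Ehhadh, whose values by library stand above, had a log2 fold change of 0.76 in NAMPT LKO Fasting vs. WT Refed livers (SE 0.21 with adjusted p = 0.0420 by edgeR) and 0.28 in WT Fasting vs. WT Refed livers (SE 0.22 with adjusted p = 0.501).

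Pex26 (ENSMUSG00000067825, chr6:121183667-121198837, plus strand) encodes the membrane anchor of the ATPases that pull the receptor out. It was 36.5 and 45.5 TMM-normalized CPM in WT Refed, 20.1, 21.4 and 30.2 in WT Fasting, and 23.7, 22.6, 27.1, 20.9 and 13.7 in NAMPT LKO Fasting livers, all fasted livers below both refed livers. Its log2 fold change was -0.92 in NAMPT LKO Fasting (SE 0.23 with adjusted p = 0.0265) and -0.78 in WT Fasting livers (SE 0.25 with adjusted p = 0.0957), both against WT Refed by edgeR. Pex11g was 35.7 and 31.9 TMM-normalized CPM in WT Refed livers, and its 5 NAMPT LKO values, given above, all lay below these (log2 fold change -0.40 with SE 0.10 and adjusted p = 0.0310 by edgeR). A difference called against WT Refed in one genotype and not in the other is not shown to differ between genotypes, since the test of that difference is the NAMPT LKO Fasting vs. WT Fasting comparison, which called none of the 35 genes. With either WT Refed library left out, 1 of the 35 genes was called here, Hao1 without mouse 1 (against 2.59% of all genes) and Pex2 without mouse 2 (against 1.69%). The number called fell to 5 without NAMPT LKO mouse 1, to 4 without mouse 2 and to 5 without mouse 4, beside 8.82%, 7.37% and 9.06% of all genes. Ehhadh and Eci2 lost their call in each of these fits, Pex11g without mouse 1 or 2, and Pex26 without mouse 2 or 4. Pex2, Slc27a2, Crot and Hao1 kept theirs in these fits.

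Upstream sequence was read for the called genes from the RefSeq promoter table of GRCm38.p6, which holds 29 of the 35 genes in 34 entries. The 250 bases before the start that RefSeq annotates were searched on both strands for AGGTCA, the hexamer that PPARα with RXR and other nuclear receptors bind, and for a direct repeat of it spaced by 1 base, the element that PPARα with RXR is known to prefer. AGGTCA stood in the windows of Cat, Pex11g, Scp2 and Slc27a2, 4 of the 29 genes and 4 of their 34 windows, against 14.0% of all 32851 promoter windows. The spaced repeat stood in 0 of the 34 windows, against 0.0335% of all windows, a share at which 0 of 34 was nearly certain, so nothing is read from it. With any base at the fourth position (AGGNCA, chosen after the data were seen, and which includes AGGTCA), 18 of the 29 genes held a match. These were 20 of the 34 windows, against 51.3% of all windows. Stretches of at least 200 bases that lie in no exon of the count tables' annotation are printed for 5 called genes. They set genes called higher against WT Refed (Eci2 and Ehhadh) beside those called lower (Hao1, Pex26 and Pex11g). Of these, Ehhadh, Pex26 and Pex11g were called in NAMPT LKO Fasting livers only. Each stretch runs 5′ to 3′ on the gene's strand in lower case, with AGGNCA matches on either strand in capitals.
Eci2 (chr13:34994145-34994394, minus strand, 250 bases): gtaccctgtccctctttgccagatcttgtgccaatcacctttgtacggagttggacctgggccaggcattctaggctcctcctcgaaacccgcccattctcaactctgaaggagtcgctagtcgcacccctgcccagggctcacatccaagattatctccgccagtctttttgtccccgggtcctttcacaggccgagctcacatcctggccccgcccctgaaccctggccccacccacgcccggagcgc
Ehhadh (chr16:21787845-21788084, minus strand, 240 bases): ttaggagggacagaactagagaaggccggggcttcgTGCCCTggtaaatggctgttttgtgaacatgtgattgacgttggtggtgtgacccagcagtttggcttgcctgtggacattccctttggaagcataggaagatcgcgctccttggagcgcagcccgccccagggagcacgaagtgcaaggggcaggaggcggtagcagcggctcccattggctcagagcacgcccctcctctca
Hao1 (chr2:134554369-134554602, minus strand, 234 bases): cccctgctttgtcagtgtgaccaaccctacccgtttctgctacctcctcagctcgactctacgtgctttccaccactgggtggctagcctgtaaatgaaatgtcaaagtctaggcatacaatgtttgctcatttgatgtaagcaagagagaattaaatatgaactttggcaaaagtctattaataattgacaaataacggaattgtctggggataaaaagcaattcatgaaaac
Pex26 (chr6:121183417-121183666, plus strand, 250 bases): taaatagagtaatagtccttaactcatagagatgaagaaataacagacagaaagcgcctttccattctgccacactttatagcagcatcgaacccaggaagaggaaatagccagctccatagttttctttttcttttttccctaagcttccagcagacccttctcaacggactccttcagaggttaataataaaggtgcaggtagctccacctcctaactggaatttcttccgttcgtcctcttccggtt
Pex11g (chr8:3467681-3467898, minus strand, 218 bases): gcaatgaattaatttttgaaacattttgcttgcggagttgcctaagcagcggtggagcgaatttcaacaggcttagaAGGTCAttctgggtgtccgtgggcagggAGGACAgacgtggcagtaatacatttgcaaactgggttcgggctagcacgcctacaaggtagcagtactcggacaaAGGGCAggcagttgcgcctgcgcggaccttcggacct
The window of Slc27a2, which holds AGGTCA, and that of Crot lie wholly in exons of the count tables' annotation. The longest exon-free stretch of Pex11a was 198 bases and the table has no entry for Pex2, so none is printed for these 4 called genes. Eci2, Hao1 and Pex26 held no match in these windows. Ehhadh held 1, on the opposite strand, and Pex11g held 3, of which 1 was AGGTCA. The RefSeq starts are not always those of the count tables. The windows of Eci2, Slc27a2, Scp2 and Acaa1a, and a further Pex16 window (chr2:92374989-92375238), lie wholly inside the gene spans given above. Those of Acox2 and Hacl1, and a further Abcd3 window, also lie wholly inside their genes. A match is only a run of letters, and binding was not measured.

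Sequence shared with other genes bears on how well short reads can be assigned, because reads of 50 bases were counted only where they aligned to 1 place. In the GENCODE transcripts, 16 of the 35 genes shared no 50-base word with another gene, and 7 shared at least 10% of their words. The pair Acaa1a and Acaa1b shared 583 words, 12.4% of those of Acaa1a and 30.5% of those of Acaa1b, so reads from these stretches would be lost or split and each gene's level is uncertain. Their summed level was 1303 to 1361 TMM-normalized CPM in WT Refed, 1348 to 1847 in WT Fasting and 1085 to 1969 in NAMPT LKO Fasting livers. Pex11g shared 39.2% of its words with Gm44775, and Scp2 shared 29.7% with Scp2-ps2 and another gene. Among the 35 genes, 11 had exon bases that overlap a gene on the opposite strand, and whether counting used strand is not given in the sources used here. Among the called genes these were Slc27a2, with 419 bases overlapping Gm26697 (at most 1.20 CPM), and Eci2, with 189 bases overlapping Gm16984 (at most 1.61 CPM). For Hacl1 and its neighbour Btd, at most 75.3 CPM, the overlap was 108 bases.

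NAMPT LKO mouse 5 stood apart from its group for many of these genes. Relative to the mean log2 level of the other 4 NAMPT LKO livers, 10 of the 35 genes were more than 0.5 lower in it and 1, Abcd2, was more than 0.5 higher. All 7 genes with a GC content above 55% were lower in it, by 0.34 to 0.92 on the log2 scale, and of the 9 genes under 45% GC only Pex2 was lower, by 0.02. These counts have no share over all genes beside them. Each liver's deviation was taken from the mean of its group's other livers, so mouse 5 is in the reference of the other 4. Across the 35 genes its Spearman correlation with GC content was -0.67 in mouse 5. In the other 4 NAMPT LKO livers it was 0.30 to 0.44, given as a description over genes that share each library. Over all genes tested with a GC content it was -0.56 in mouse 5 and 0.14 to 0.38 in the other 4. The trend was thus not particular to the 35 genes. Mouse 5 also had the highest mitochondrial share (21.1%). Among the NAMPT LKO livers, mouse 5 was lowest for 14 of the 35 genes and highest for 13. Of the 11 assembly and import genes, 7 were lowest in it. Leaving it out together with WT Fasting mouse 3, the other library with an unusual mitochondrial share, gave 11 called genes in WT Fasting vs. WT Refed, 0 in NAMPT LKO Fasting vs. WT Fasting and 12 in NAMPT LKO Fasting vs. WT Refed livers, against 17.3%, 0.00755% and 25.1% of all genes tested in those fits, an alternative chosen after the data were seen.

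**Figure D4:**
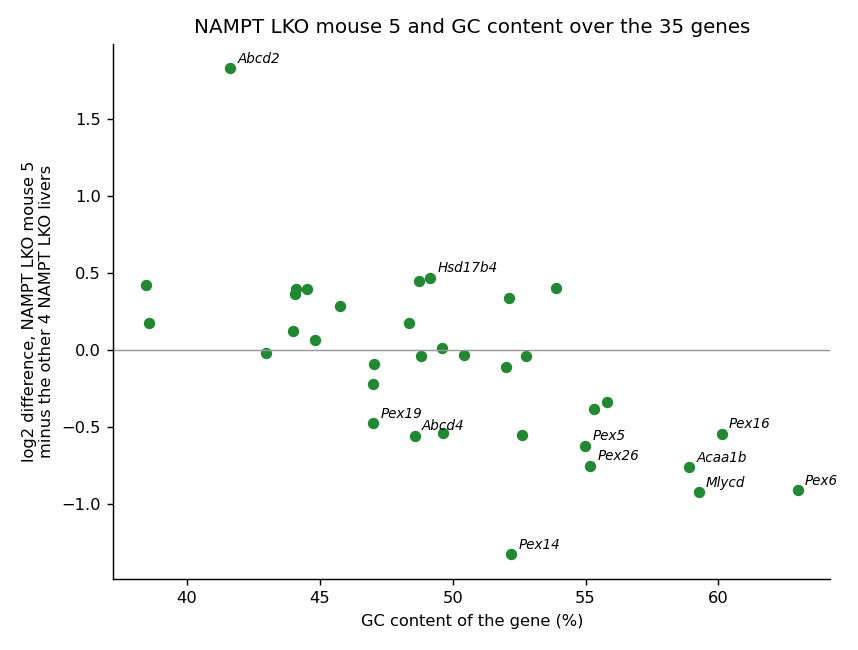
Log2 difference between NAMPT LKO mouse 5 and the mean of the other 4 NAMPT LKO livers (vertical axis) against the GC content of each of the 35 genes (horizontal axis, percent). Genes above 55% GC all lie below 0 and 8 of the 9 genes under 45% GC lie above 0.

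A further list of 43 peroxisomal genes outside the set, of which 39 passed the filter, was described in the same way. In WT Fasting vs. WT Refed livers 4 of the 39 were called (10.3%, against 7.04% of all genes). The carnitine acetyltransferase gene Crat was higher (log2 fold change 0.72), and the CoA diphosphatase gene Nudt7 (-2.33), the mevalonate kinase gene Mvk (-1.17) and the fission GTPase gene Dnm1l (-0.66) were lower. Nudt7 was 318 and 380.1 TMM-normalized CPM in WT Refed livers and 48.8 to 95.2 in the 8 fasted livers, the largest difference of any peroxisomal gene examined. Between the fasted genotypes 0 of the 39 were called, against 0.00744% of all genes, and at an unadjusted p under 0.05 4 passed, against 6.03%, each lower in NAMPT LKO livers, Prdx5 (log2 fold change -0.35), Paox (-0.47), Dhrs7b (-0.33) and Fis1 (-0.31). In NAMPT LKO Fasting vs. WT Refed livers 6 were called (15.4%, against 11.2% of all genes), with Crat (0.81) and Pxmp4 (0.56) higher and Nudt7 (-2.17), Mvk (-1.40), Dnm1l (-0.53) and Slc25a17 (-0.40) lower. The median log2 fold changes of the 39 genes were 0.04, -0.003 and -0.03 in the 3 comparisons.

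Of the 5 regulators listed with the set, Ppara was 98.0 to 128 TMM-normalized CPM in WT Refed, 150.1 to 163 in WT Fasting and 142 to 190.3 in NAMPT LKO Fasting livers, without overlap with WT Refed. Its log2 fold change was 0.48 in WT Fasting (adjusted p = 0.107) and 0.53 in NAMPT LKO Fasting livers (adjusted p = 0.0454), both against WT Refed by edgeR. The coactivator gene Ppargc1a had log2 fold changes of 1.13 (adjusted p = 0.149) and 1.76 (adjusted p = 0.0236) in the same comparisons by edgeR. The receptor partner Rxra, the corepressor Ncor1 and the hepatocyte factor Hnf4a were called in none of the 3 comparisons, and none of the 5 regulators was called between the fasted genotypes.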

How the data were processed

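Bulk RNA-seq libraries of 10 mouse livers were used, with polyA RNA read as single reads of 50 bases. The deposited count of each gene was made by the authors with STAR (2.5.1a in the submitters' processing notes, another version in the study's methods) and featureCounts (1.4.6-p5 in the notes) on GRCm38 with Ensembl 76, from uniquely aligned, unambiguous reads, 1 library per table. The deposited CPM and RPKM were made by the authors from these counts, the library total and gene length, as recomputation showed. Strand use is not given in the sources used here, and rRNA genes (4 above the filter) were left out.

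Counts were fitted in 1 model of the 3 groups with edgeR 4.0.16 in R 4.3.3 (TMM, quasi-likelihood test, genes above 1 CPM in at least 1 library), with Benjamini-Hochberg adjustment over the 13444 genes tested. The fit was tested on simulated data with 200 changed genes out of 13444, where in the WT Fasting vs. WT Refed design 44% of the 2-fold and 87% of the 4-fold changes were recovered. Alternatives were DESeq2 1.42.0, limma 3.58.1 (voomWithQualityWeights), edgeR's exact test, other scalings and filters, removal of a GC trend, only the compared groups, and leaving out each library. Total counts were 30603080 to 43434139 per library and counts of the 35 genes 142 to 163624. p-values measure the spread between these livers, whose litters the labels do not give. The comparisons share libraries (WT Fasting, WT Refed or NAMPT LKO Fasting), so their values are set side by side and no overlap between them is read.

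The 35 genes and the gene lists were chosen with earlier results of these data known. Named by library were each gene called in any comparison, the 5 with the lowest p between the fasted genotypes, the 3 with the highest mean RPKM, and those whose fasted groups did not overlap. Replicate numbers 1 to 3 occur in both fasted groups but mark different mice, and they were not used to pair them. Protein sequence features were not analysed here.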

Additional observations from a re-analysis of the deposited data

Results flagged for a closer look

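In the 5 NAMPT LKO Fasting livers, 36 values (the 35 genes and Nampt) were examined for 1 liver far from the rest, measured as the gap to the nearest liver divided by the range and set against a limit of 0.71. Chance alone would give about 1 in 20, or 1.8 of 36, and 5 passed the limit, 4 of them in mouse 5. The 36 values share the same 5 livers and are not independent, so the count is a description. Pex14, the docking peroxin, was 14.7 TMM-normalized CPM in mouse 5 and 36.4 to 38.5 in the other 4 livers (gap 0.913 of the range). Slc27a2 was 2188 TMM-normalized CPM in mouse 5 against 1714 to 1770.0 (0.881), Hsd17b4 was 915 against 622 to 701 (0.731) and Dhrs4 was 225 against 162 to 178 (0.755). Pecr was 144 TMM-normalized CPM in mouse 4 against 103 to 113 in the others (0.753). Among the NAMPT LKO livers, mouse 5 had the lowest Pex14 (52.2% GC). It had the highest Slc27a2 (52.1% GC), Hsd17b4 (49.1% GC) and Dhrs4 (53.9% GC). Over the 35 genes the deviations of mouse 5 followed GC content, and why these 4 genes stood out was not tested.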

How the results depend on the processing

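Over 18 gene and comparison pairs (the genes called against WT Refed, and the 5 with the lowest p between the fasted genotypes), no log2 fold change changed sign in 370 values, and 59 of the values lost a call. The 5 pairs between the fasted genotypes had no call to lose. All pairs were picked from these same data and the alternatives reuse most libraries, so a steady sign is no independent test. In WT Fasting vs. WT Refed livers, where 5 of the 35 genes were called, limma's voomWithQualityWeights called 15 (24.8% of all genes), DESeq2 8 (12.2%), the fit scaled by library size alone 3 (7.28%), the fit with the GC trend removed 8 (11%), and the fit without NAMPT LKO mouse 5 and WT Fasting mouse 3 (chosen after the data were seen) 11 (17.3%). At an unadjusted p under 0.05 there were 11, against 22.3% of all genes, and 1 was called when a 1-unit log2 difference was also required. With 1 library left out the count was 0 to 9, beside 0.798% to 16.7% of all genes. For NAMPT LKO Fasting vs. WT Refed livers, where 8 were called, voom called 19 (31.8% of all genes) and a fit of only these groups 5 (8.6%), with 14 at an unadjusted p under 0.05, 0 when a 1-unit log2 difference was also required, and 1 to 9 with 1 library left out, beside 1.69% to 21.2% of all genes. For the other 39 peroxisomal genes the first of these comparisons gave 12 by voom, 7 by DESeq2, 9 without the 2 libraries, 9 at an unadjusted p under 0.05, 2 past the 1-unit limit and 1 to 10 with 1 library left out. The other gave 15 by voom, 3 with only these groups, 12 without the 2 libraries, 11 unadjusted, 2 past the 1-unit limit and 2 to 11 with 1 library left out. Of all genes, 26.1% passed an unadjusted p under 0.05 in NAMPT LKO Fasting vs. WT Refed livers. Shares past the 1-unit limit were not taken over all genes. Between the fasted genotypes the calls stayed at 0 of the 35 genes under each alternative with adjusted p-values, beside at most 0.179% of all genes. At an unadjusted p under 0.05, 4 of the 35 and 4 of the 39 passed between these genotypes, against 6.03% of all genes. The median log2 fold change of the 35 genes ran from -0.10 to -0.013 there with 1 library left out. Against WT Refed, the median of the knockout livers was -0.014 by library size alone, 0.14 without the 2 libraries and 0.023 to 0.14 with 1 library left out. Why the tools differ was not tested.

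Fits of the mice numbered 1 to 3 with the replicate block gave a log2 fold change of Nampt of -2.78 (adjusted p = 0.106 by edgeR) and, with no block, -2.87 (adjusted p = 0.269 by edgeR). Either way 0 of the 35 genes were called, beside 0 of all 13231 genes tested. Since the deleted gene itself was not called, nothing about the 35 genes can be read from these 2 fits. Deviations of livers with the same number correlated at 0.0764, 0.162 and 0.0968, each the highest for its number. Deviations were taken from the mean of only 3 livers per group and no chance level was computed, so a pairing was not tested. In the comparisons with WT Refed, a lone refed liver has no spread of its own when the other is left out. The lowest count of any of the 35 genes in a library was 142.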

Other observations

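Separately from the levels themselves, the roles were compared by their median log2 fold change as a description. In WT Fasting vs. WT Refed livers the 4 transporter and activation genes had the highest median (0.64, 4 of 4 above 0), followed by the 2 division genes (0.41) and the 4 auxiliary enzymes (0.31), while the 2 alpha-oxidation genes had a median of -0.16. Between the fasted genotypes the medians were -0.15 for the 11 assembly and import genes, -0.25 for the 2 division genes, 0.12 for the transporter and activation genes and 0.04 for the 7 beta-oxidation enzymes. The summed level of the 11 assembly and import genes was 628.8 to 639.6 TMM-normalized CPM in WT Refed, 639.9 to 716.3 in WT Fasting and 481.7 to 664.9 in NAMPT LKO Fasting livers, lowest in mouse 5. The 4 transporter and activation genes summed to 1644 to 1722 TMM-normalized CPM in WT Refed livers and 2099 to 3053 in the fasted livers, most of it from Slc27a2.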
